A study of Caenorhabditis elegans with 2 samples.

Results

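The cytosolic chaperonin CCT (also called TRiC) is assembled from 8 subunits, and in Caenorhabditis elegans each is encoded by a gene of its own, cct-1 to cct-8. These 8 genes, of 19973 nuclear protein-coding genes, were taken by name, and their starts were searched for peaks in a chromatin immunoprecipitation and sequencing (ChIP-seq) data set. The series holds 2 biological replicates that form 1 group: whole young adults, 63 hours old, of strain RW12265, in which Y56A3A.18 (znf-593) on chromosome III carries a CRISPR-inserted TY1::EGFP::3xFLAG tag. Antibody against GFP recovered the tagged protein. The larvae had been synchronised by bleaching and starvation, chromatin was sonicated, and the fragment range given is 200 to 800 bp. Both replicates are of this same edited strain, and the named control experiment was not analysed here, so the values have no background measured in untagged animals or input DNA beside them. Whole animals hold many tissues, and a weak signal in all cells cannot be told apart from a strong signal in a few.

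CCT is a cage of stacked rings in which newly made proteins fold in a cycle driven by ATP. Actins and tubulins are its best known clients, and they reach it partly through the cofactor prefoldin and with help from phosducin-like proteins. In yeast the subunits fall into a set that binds ATP with high affinity, the counterparts of CCT-1, CCT-2, CCT-4 and CCT-5, and a set with low affinity, the counterparts of CCT-3, CCT-6, CCT-7 and CCT-8. In worms, raised levels of CCT-8 have been reported to increase the amount of assembled chaperonin. The tagged protein is a C2H2 zinc finger protein, and its yeast counterpart, Bud20, is an assembly factor of the large ribosomal subunit.

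A gene start was called occupied when its window, from 1000 bp before the annotated 5′ end of the gene to 500 bp after it, held a peak summit. The main list is the one the authors call conservative, 1687 peaks found with both replicates. It was filtered by the irreproducible discovery rate (IDR), which is low for peaks that rank consistently high in 2 sets being compared. In that list 2 of the 8 CCT genes were occupied, cct-8, the theta subunit, and cct-1, the alpha subunit, against 3.89% of all protein-coding genes. The DNA of those 2 peaks is shown because it holds the whole signal that passed the threshold at this gene family. Both stretches are from the RefSeq WBcel235 genome, which has ce11 coordinates, and are written 5′ to 3′ in the direction of the CCT gene. Capitals mark CG dinucleotides.

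The cct-8 peak spans chrIV:1094299-1094451 and is read on the minus strand, with its summit at base 89 of 153. The cct-1 peak spans chrII:8185104-8185403 and is read on the plus strand, with its summit at base 151 of 300. Neither interval overlaps an annotated gene.
cct-8: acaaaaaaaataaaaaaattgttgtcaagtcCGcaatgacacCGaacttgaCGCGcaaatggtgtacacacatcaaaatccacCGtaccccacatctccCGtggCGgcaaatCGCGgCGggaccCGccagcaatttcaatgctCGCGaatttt
cct-1: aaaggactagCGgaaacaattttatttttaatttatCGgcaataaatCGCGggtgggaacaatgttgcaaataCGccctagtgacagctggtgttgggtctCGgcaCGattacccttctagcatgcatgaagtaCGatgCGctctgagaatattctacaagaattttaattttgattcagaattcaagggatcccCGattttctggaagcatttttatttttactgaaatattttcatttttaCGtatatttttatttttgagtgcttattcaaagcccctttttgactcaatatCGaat

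The sequences differ in composition. The cct-8 peak is 47.7% G and C with 13 CG dinucleotides, 5 of them before the summit and 8 from the summit on, and it has a run of 8 A near its 5′ end. The cct-1 peak is 300 bp long and 35.7% G and C, and 9 of its 12 CG dinucleotides lie before the summit. In the 201 bp centred on the summit, cct-8 had 16 CG dinucleotides and cct-1 had 7, beside a median of 9 over the 1687 conservative peaks. Of those peaks, 11.0% had at least as many as cct-8 and 76.8% at least as many as cct-1. In these windows of equal length, G and C made up 44.8% at cct-8 and 38.3% at cct-1, closer than in the intervals of unequal length. At least as much G and C was found in 42.0% (cct-8) and 73.0% (cct-1) of the conservative peaks.

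The gene cct-8 carried the strongest signal of the family. It lies on the minus strand of IV at 1087108 to 1093920 (WBGene00021934). The signal, the authors' value for the strength of a peak on a scale not given in the sources used here, was 277.9 for both replicates together. Taken alone, the peak reached 125.8 in replicate 1 and 146.1 in replicate 2, a mean of 136.0 ± 14.4 (SD, n = 2). The summit lay 443 bp upstream of the gene start in the list of both replicates, 447 bp upstream in replicate 1 and 442 bp upstream in replicate 2. The peak was 153 bp wide, and only 3.85% of conservative peaks were that narrow or narrower. The median width in that list was 300 bp, which is also the width of the cct-1 peak. In the replicates' own lists the cct-8 peak was 63 bp (replicate 1) and 119 bp (replicate 2) wide, beside medians of 244 and 256 bp. How widths were set is not given, so they were not read as the extent of binding.

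By signal this peak ranked 16 among the 1687 conservative peaks. It also passed the threshold in each replicate taken alone, at rank 30 of 817 in replicate 1 and rank 6 of 754 in replicate 2. In the longer ranked lists, which keep peaks on both sides of the threshold, its signal was 8.26 times the list median in replicate 1 and 11.5 times in replicate 2. Weaker ranked summits lay just inside the gene, at 178 bp downstream of the start with a signal of 19.0 in replicate 1, and at 67 bp (4.64) and 280 bp (12.8) downstream in replicate 2. The signal at cct-8 was therefore upstream of the gene in both replicates, with values near or below the list median inside it in replicate 2 and 1.25 times the median in replicate 1.

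The cct-8 summit has other gene starts in range. Y55F3AR.2, which RefSeq describes as a thioredoxin domain-containing protein, starts on the opposite strand at 1094541, and the summit was 178 bp upstream of that start, nearer than to cct-8. The noncoding gene Y55F3AR.4 lies between them, with its start 276 bp from the summit. When each summit was given only to the protein-coding gene with the nearest start, cct-8 was no longer occupied and 1 of the 8 members remained. The nearest tRNA gene was 251483 bp from the summit and the nearest snoRNA gene 108537 bp.

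The gene cct-1 (II 8185443 to 8187601, plus strand, WBGene00000377) was the other occupied member, with a signal of 109.2 for both replicates together and rank 245 of the conservative list. Its signal was 40.2 in replicate 1 and 60.4 in replicate 2, a mean of 50.3 ± 14.3 (SD, n = 2). The summits lay 173 and 216 bp upstream of the start in replicates 1 and 2, within 43 bp of each other. In replicate 1 alone the peak had an IDR of 0.0147 and was not in the thresholded list. The threshold was taken as 0.01 from the values in the deposited lists. In replicate 2 alone the peak passed with an IDR of 3.2e-04. The list of replicate 1 alone therefore held 1 occupied member, cct-8, against 2.00% of protein-coding genes. That of replicate 2 alone held 2, against 1.85%.

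The cct-1 summit is shared too. The gene mig-5, which encodes a Dishevelled protein of Wnt signalling, starts on the opposite strand at 8185023, and the summit lay 231 bp upstream of it and 189 bp upstream of cct-1. Here the CCT gene is the nearer start. The nearest tRNA gene was 428231 bp away and the nearest snoRNA gene 52224 bp.

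**Figure D1:**
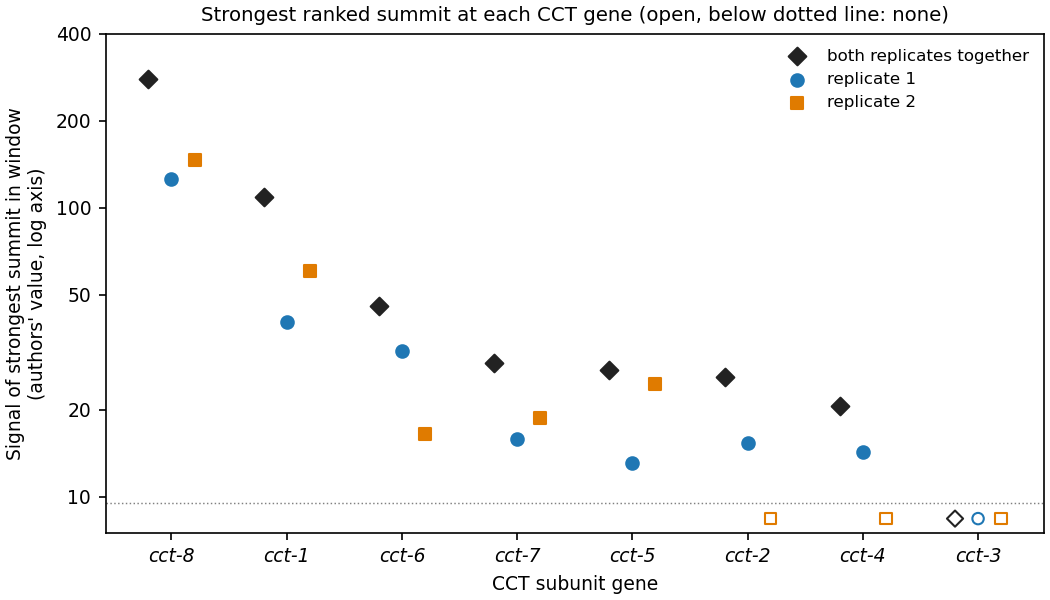
Signal of the strongest ranked summit (vertical, authors' value, log axis) in the window of each CCT gene, for both replicates together (diamonds), replicate 1 (circles) and replicate 2 (squares); open symbols under the dotted line mark no ranked summit. At cct-8 the replicates sit at 125.8 and 146.1 and at cct-1 at 40.2 and 60.4, above every replicate value of the other members.

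The other 6 genes had no peak past the threshold within range. The nearest of them to the IDR threshold was cct-6, the zeta subunit (III 5853530 to 5855687, minus strand), with a signal of 45.9 for both replicates together, an IDR of 0.0702 and a summit 69 bp inside the gene. For comparison, the IDR of cct-1 in the same ranked list was 4.1e-04. Replicate 1 gave cct-6 a signal of 32.1 and replicate 2 gave 16.5, a mean of 24.3 ± 11.0 (SD, n = 2), with summits 115 and 41 bp downstream of the start. Its IDR was 0.181 in replicate 1 alone and 0.671 in replicate 2 alone, both above 0.01. The cct-6 values differ by close to a factor of 2 between replicates, and only that of replicate 1 stands well above the list median, at 2.11 times against 1.30 times in replicate 2.

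The eta subunit gene cct-7 (V 1872246 to 1875505, plus strand) and the epsilon subunit gene cct-5 (III 4499188 to 4508114, minus strand) had weak ranked summits in both replicates, but at different places. At cct-7 replicate 1 gave 15.9 at 341 bp upstream and replicate 2 gave 18.7 at 312 bp downstream, 653 bp apart. At cct-5 replicate 1 gave 13.0 at 576 bp upstream and replicate 2 gave 24.6 at 233 bp downstream, 809 bp apart. The signal values of each gene are of similar size in both replicates at cct-7 and differ at cct-5, and at neither gene did they mark a common position.

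The beta subunit gene cct-2 (II 8927741 to 8929815, plus strand) and the delta subunit gene cct-4 (II 8283667 to 8285711, plus strand) had ranked summits in replicate 1 only. Their signals there were 15.3 at 259 bp upstream of cct-2 and 14.3 at 128 bp downstream of cct-4, both close to the list median of 15.2. In replicate 2 the nearest ranked summits lay 1126 and 1112 bp from the starts of cct-2 and cct-4, outside the window.

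The gamma subunit gene cct-3 (II 2233540 to 2243539, plus strand) had no ranked summit in its window in either replicate or in both together. The nearest ranked summits were 4727 bp from its start in replicate 1 and 3554 bp in replicate 2, and the nearest conservative summit was 145121 bp away. None of the 8 gene bodies held a conservative summit.

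**Figure D2:**
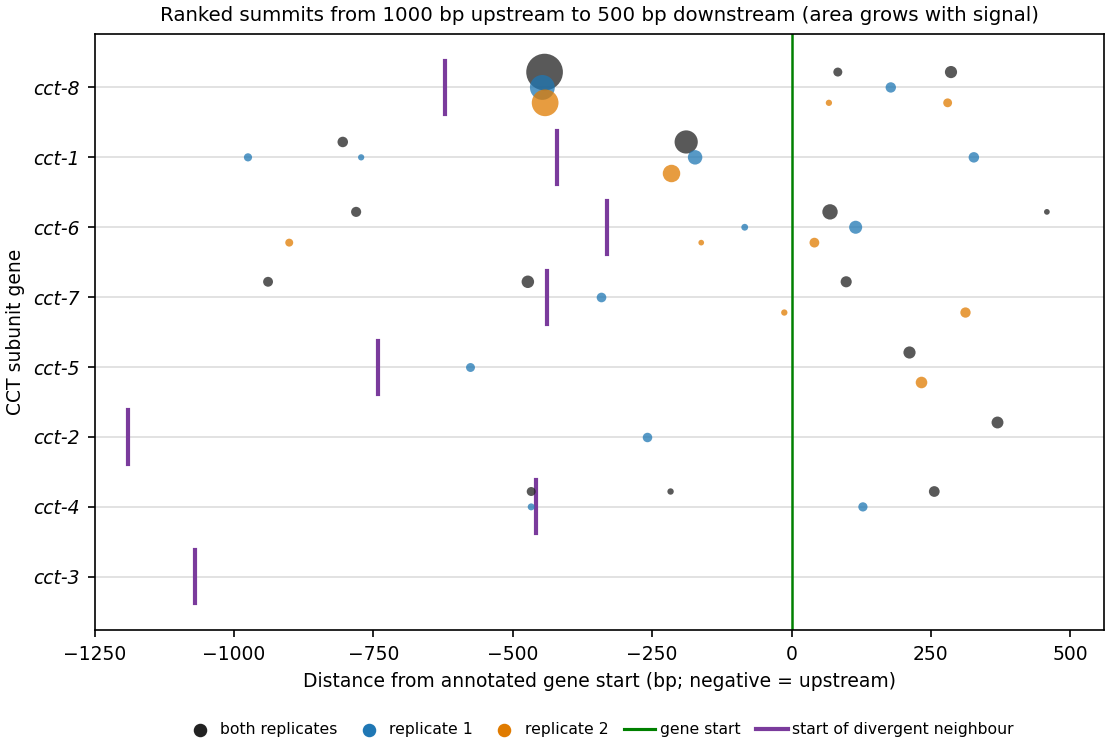
Position of every ranked summit (horizontal, bp from the gene start, negative upstream) at the 8 CCT genes, with both replicates together above, replicate 1 in the middle and replicate 2 below in each row; larger points have higher signal, and purple bars mark the start of the divergent neighbour. Large points stack within 5 bp (replicates at cct-8) and 43 bp (cct-1), while those of cct-7 and cct-5 lie 653 and 809 bp apart.

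A ranked summit by itself is a common event. Of the 8 members, 7 had at least 1 in replicate 1, against 52.8% of protein-coding genes, and 5 had at least 1 in replicate 2, against 54.7%. In both replicates 5 members had such a summit, cct-1, cct-5, cct-6, cct-7 and cct-8, against 38.4%. Agreement in place was counted only among genes with a summit in both replicates. The strongest summits of the replicates lay within 100 bp of each other at 3 of those 5 members, cct-8, cct-1 and cct-6, against 41.3% of the 7668 genes with a summit in both.

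Set in order by the signal of both replicates together, the family ran from cct-8 (277.9) through cct-1 (109.2), cct-6 (45.9), cct-7 (29.1), cct-5 (27.4) and cct-2 (26.1) to cct-4 (20.6), with cct-3 last and without a summit. The replicate values of cct-8 (125.8 and 146.1) and cct-1 (40.2 and 60.4) do not overlap each other or those of any other member. Below cct-1 the neighbours cannot be ordered, since the replicate values of cct-6 (16.5 and 32.1), cct-7 (15.9 and 18.7) and cct-5 (13.0 and 24.6) overlap.

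The position of the family among all protein-coding genes shows the same division. The strongest signal at cct-8 was above that of 99.93% of protein-coding genes in replicate 1 and 99.97% in replicate 2, and that of cct-1 above 97.7% and 99.6%. For cct-6 the shares were 95.5% and 78.4%, for cct-5 58.5% and 93.2%, and for cct-7 68.0% and 84.2%. The remaining genes were at 66.1% (cct-2) and 62.5% (cct-4) in replicate 1, and without a summit, hence at 0, in replicate 2, and cct-3 was at 0 in both. Over the 8 members the median was 67.0% in replicate 1 and 81.3% in replicate 2. The highest values in both replicates therefore belong to cct-8 and cct-1, with cct-6 close to cct-1 in replicate 1, and the family as a whole was not uniformly high. Genes without a ranked summit count as 0, which raises the shares of the others. Among genes with a summit the median strongest signal was 17.6 in replicate 1, above cct-2, cct-4, cct-5 and cct-7. In replicate 2 it was 14.8, below all members with a summit there. With the narrower window of 500 bp upstream to 200 bp downstream, the mean of these medians was 56.3 ± 33.4% (SD, n = 2). With the window used here it was 74.2 ± 10.1%, so the replicates differ far more with the narrower window.

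**Figure D3:**
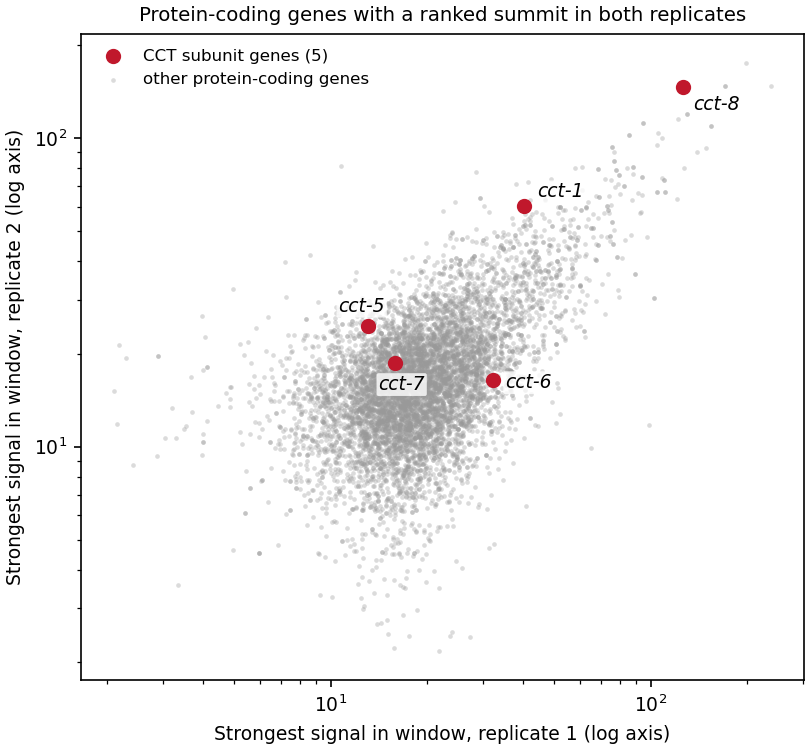
Strongest signal in the window in replicate 1 (horizontal, log axis) and replicate 2 (vertical, log axis) for the 7668 protein-coding genes with a ranked summit in both, with the 5 CCT genes among them in red. The points of cct-8 and cct-1 lie at the upper end of the cloud, while cct-5, cct-6 and cct-7 lie lower, with cct-6 at 32.1 in replicate 1 and 16.5 in replicate 2.

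The occupied genes were also set beside the grouping of the subunits by ATP affinity in yeast. Of the 4 genes of the high-affinity set, cct-1 was occupied and cct-2, cct-4 and cct-5 were not. Of the 4 of the low-affinity set, cct-8 was occupied and cct-3, cct-6 and cct-7 were not. With each summit given only to the nearest start, cct-8 was not occupied either. A relation to the grouping was not tested, and the occupied genes are too few to show or exclude one.

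The gene arrangement is shared by the whole family. At each of the 8 genes the nearest protein-coding gene upstream lies head to head, on the opposite strand, within 1500 bp, against 22.4% of all protein-coding genes. This feature was noticed after the values were seen. The gap was 620 bp at cct-8, 419 bp at cct-1, 330 bp at cct-6 (to alh-9, an aldehyde dehydrogenase gene), 438 bp at cct-7 and 458 bp at cct-4 (to nst-1, which encodes a nucleostemin-like GTPase). It was 740 bp at cct-5, 1069 bp at cct-3 and 1189 bp at cct-2, beside a median of 596.5 bp for such pairs in the genome. Both occupied members have their summit inside that shared upstream region. Among all protein-coding genes with a head-to-head neighbour within 1500 bp, 5.58% were occupied.

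The start regions were also searched for short words. In the stretch from 250 bp before to 50 bp after the start, the letters TTCNNGAA, the core of the heat shock element to which the factor HSF-1 binds, were found at 5 of the 8 members, cct-1, cct-4, cct-5, cct-6 and cct-7, and in 18.9% of the stretches of all protein-coding genes. This word reads the same on both strands. At cct-1 it begins 139 bp before the start and 50 bp on the gene's side of the summit, inside the peak printed above. At cct-8 the letters were found neither in this stretch nor in the peak. The conservative summit windows, which are shorter at 201 bp, held TTCNNGAA in 11.1% of cases. At cct-4, cct-5, cct-6 and cct-7 it was absent from the 201 bp around the strongest ranked summit of both replicates together. A relation of this word to the signal was not tested. The words AGACGC and ACGCAG were taken from an earlier account of this whole series, so their shares among its peaks are not an independent observation. They were searched on both strands and share 4 letters where they overlap. Neither was found in any of the 8 start regions, against 7.87% (AGACGC) and 8.23% (ACGCAG) of the start regions of all protein-coding genes. Neither word was in the cct-8 or cct-1 peak, and the conservative summit windows of 201 bp held them in 14.2% (AGACGC) and 15.2% (ACGCAG) of cases.

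The genes whose values were most like those of cct-8 were found by the distance between log2 signals over the 2 replicates. Y55F3AR.2 had distance 0, since it shares the peak. K11H12.8 and rpl-15, a gene of a large ribosomal subunit protein, share a peak of 129.5 in replicate 1 and 120.0 in replicate 2 (distance 0.29). The next was mog-4, which encodes a DEAH-box splicing helicase, with 121.9 and 115.4 (distance 0.34). With 2 replicates this likeness rests on 2 values per gene.

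The genes of the proteins that work with CCT were set beside it. Of 34 genes for its cofactors, its clients and related chaperone functions, 6 had a conservative summit, or 17.6%, read against the same 3.89% of all protein-coding genes. A summit was counted for every gene whose window held it. Apart from pfd-1, whether these summits are shared with, or nearer to, other gene starts was not examined for the 34 genes. The other occupied genes may therefore share theirs as well. Among cofactors, pfd-1 was the occupied member of the 6 prefoldin genes (70.9, summit 380 bp upstream), with 45.6 in replicate 1 and 28.2 in replicate 2. The gene F01G4.6 had the same values in both replicates, so the pfd-1 signal cannot be given to pfd-1 alone. The 5 others had ranked summits in both replicates that did not pass. The phosducin-like gene txdc-9 had a weak ranked summit in replicate 2 only (8.96).

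Among clients, 3 of 16 tubulin genes were occupied. The alpha tubulin gene tba-2 led them with 125.8 (57.8 and 59.5 in replicates 1 and 2), followed by tba-7 (86.97, summit 298 bp inside the gene), also an alpha tubulin gene, and the beta tubulin gene tbb-1 (64.9), which were named after their values were seen. Of the 5 actin genes, act-4 had a conservative summit, at 45.6 and 148 bp inside the gene. Actin and tubulin genes have close copies, and reads inside them may have been split between copies, so the values of tba-7 and act-4, whose summits lie within the gene, are uncertain. None of the 4 WD-repeat clients (fzy-1, fzr-1, gpb-1 and gpb-2) was occupied, nor was hsf-1, the heat shock factor gene.

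The mitochondrial chaperonin gene hsp-60, whose product is a separate kind of folding cage, had a signal of 189.7 at 614 bp upstream, with 85.7 in replicate 1 and 102.7 in replicate 2. These values lie below those of cct-8 and above those of cct-1 in both replicates. The occupied cofactor and client genes overlap cct-1 in range: tba-2 was above cct-1 in replicate 1 (57.8, against 40.2) and just below it in replicate 2 (59.5, against 60.4).

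**Figure D4:**
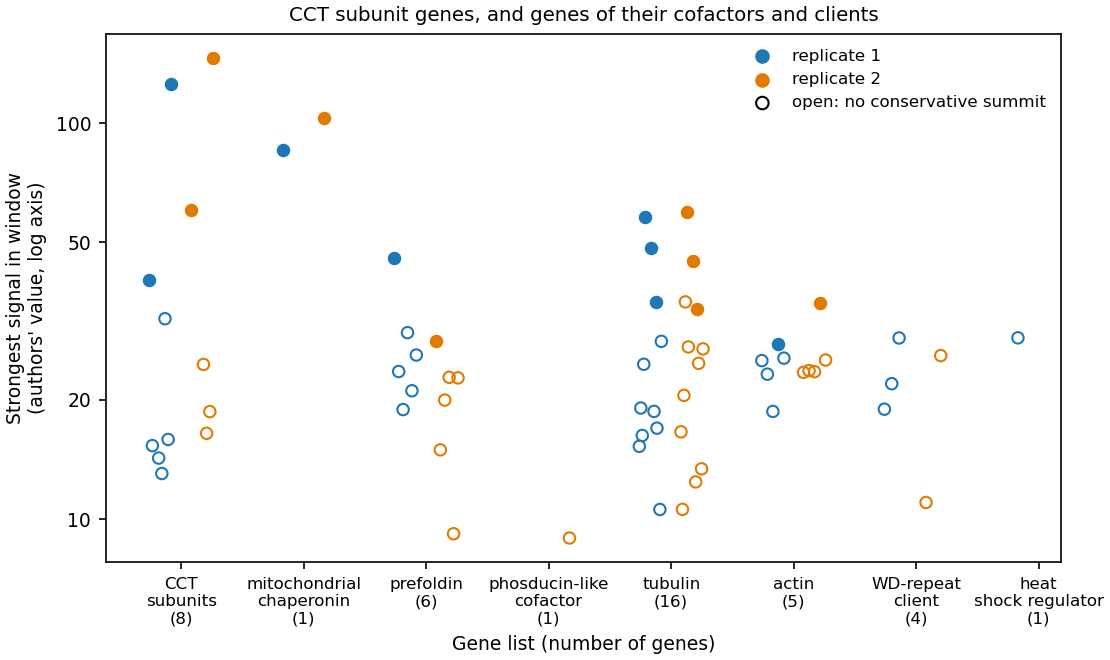
Strongest signal in the window (vertical, authors' value, log axis) in replicate 1 (blue) and replicate 2 (orange) for the 8 CCT genes and for 34 genes of cofactors, clients and related functions by list (horizontal); filled points have a conservative summit and genes without a ranked summit are not drawn. The highest points are cct-8 (125.8 and 146.1) and hsp-60 (85.7 and 102.7), and most points of every larger list are open.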

How the data were processed

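Peak lists of both replicates were used as deposited by the authors. The lists use assembly ce11 and are IDR ranked or IDR thresholded, per the file headers. Aligner and peak caller: not given in the sources used here. Signal values are the authors' strength per peak, never negative. Score values are the authors' scaled IDR. The −log10 values used are the authors' −log10 of the IDR, read from the layout of the deposited lists, and the threshold was taken as 2 (IDR 0.01) from those values; the deposited thresholded lists leave out some peaks past it. No read counts were used, so the depth is unknown.

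Summits were assigned with Ensembl release 115 genes of WBcel235 (Python 3.11.15, pandas 2.3.3), and the assignment was checked on simulated summits. A replicate value is the strongest ranked summit in the window in that replicate's own list. SDs are over 2 replicates. Whether the authors scaled the signal between replicates is unknown; percentiles are within a list. The comparisons are counts and levels, without a test, as there is 1 group. The members, lists and partner genes were chosen with earlier results of these data known. Named genes are the members, genes that share their summits, the 4 genes nearest cct-8 in log2 signal, and the strongest occupied gene of each partner list; others were named after their values were seen. From the partner lists 2 names were left out because their annotation did not match the list. Alternatives were other windows, lists, assignments and each replicate alone.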

Additional observations from a re-analysis of the deposited data

How the results depend on the processing

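The count of 2 occupied CCT genes was the same with windows of 500 bp upstream to 200 bp downstream and of 2000 bp upstream, with peak overlap in place of the summit, with the other thresholded list, with peaks at or above the median signal and, an alternative chosen after seeing the data, with every transcript start. It was 1 with the nearest start only, where cct-8 was lost to Y55F3AR.2, and 1 to 2 with a replicate left out, where cct-1 was lost without replicate 2. The cct-8 signal of 277.9 was the same in the other thresholded list and the narrow window. Taking the summit nearest the start instead of the strongest gave a mean replicate signal of 11.8 at cct-8, against 136.0, because another peak, inside the gene, was then read. Of the 5 members with a ranked summit in both replicates, 3 had summits within 100 bp, also chosen after seeing the data. The count of members with a ranked summit in both was 4 with the narrow window, 7 with the wide and 4 with signals at or above the list median. Shares of all protein-coding genes were not computed for the other windows or for this signal cut. A wider window takes in more summits at any gene, so these counts are not read as a result about the family. The median percentile over both replicates was 74.2 ± 10.1 (SD, n = 2), and 67.0 to 81.3 with a replicate left out. It was 56.3 ± 33.4 with the narrow window and 81.0 ± 5.5 with the wide window. Among genes with a ranked summit, which leaves out members without one, it was 63.5 ± 34.1. The replicates thus differ widely with the narrow window and among genes with a summit, and those means describe neither replicate. The replicate values held in the ranked list of both replicates were not run, as its columns name no replicate. The depth of the libraries is unknown here, so the absence of a summit, as at cct-3, says only that none was listed.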

Other observations

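Ranked summits were also counted over each whole gene, so those just inside the start, as at cct-8, are included. None of the 8 genes held a conservative summit, and the thresholded lists of each replicate were not searched over whole genes. Of the 3 longest genes, cct-5 (8927 bp) held 15 ranked summits in replicate 1 and 14 in replicate 2. In the same order, cct-8 (6813 bp) held 5 and 8, and cct-3 (10000 bp) held 3 and 4. The rate of ranked summits over all genes was not computed, so these counts cannot be called high or low. The second ranked list of both replicates gave the cct-8 peak the same IDR, 1e-05, and gave the cct-6 peak another. The cct-6 peak had an IDR of 0.0267 there, against 0.0702 in the list that holds the conservative peaks, and missed the threshold in both. The most CG dinucleotides in a CCT start region, 16 in 300 bp, were at cct-7, which had no peak past the threshold, and the fewest, 6, were at cct-2 and cct-8.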
